A study of Mus musculus with 69 samples.

Results

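The 10 genes followed here, Orm1, Orm2, Lcn2, Hp, Lbp, Cp, Serpina3n, Hpx, Itih4 and Ptx3, code for acute phase proteins other than the serum amyloid A family. They were measured in the lung of mice that had been instilled with titanium dioxide nanomaterials (NMs). Probes were assigned to a gene through the accession printed for each probe and its RefSeq symbol, which gave 11 probes for the 10 genes, with 2 for Ptx3 and 1 for each of the others. All 10 were among the 18656 genes that could be tested. The list was selected on measured values: it was drawn up with the response on day 1 to 162 µg of NRCWE-030 already known. Comparisons that hold those arrays, or the vehicle arrays of day 1 that they were set against, are therefore descriptions: the number of genes past the threshold is given for them, but it is no evidence about the list. Tests are given for comparisons between the means of other arrays. Where a fit also held the arrays above, the error of its tests was pooled over them too.

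Female C57BL/6 mice, 5 to 7 weeks old on delivery and acclimatised for 1 to 3 weeks, received a single intratracheal instillation, and lung was taken 1 or 28 days later. NRCWE-025 and NRCWE-030 are the labels' names of the 2 nano-TiO2 materials, and each was given at 18, 54 or 162 µg per mouse in water that held 2% serum. Vehicle mice received the same serum and water alone, and the 5 vehicle mice of a day served as controls for both materials. Every group had 5 mice, except for 4 at 162 µg of NRCWE-025 on day 28, which made 14 groups and 69 arrays with 1 mouse each. Lung RNA, extracted from a small frozen section of the organ, was labelled with Cy5 and hybridised with a commercial pool of mouse reference RNA in Cy3, with no dye swap. Each value below is thus a log2 ratio of lung to reference, which compares groups for 1 gene and does not rank the genes by abundance. A log2 difference of 1 is a doubling.

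The acute phase response is the body's reaction to infection or tissue injury, in which cytokines such as interleukin 6 and interleukin 1 change the output of a set of secreted proteins. The liver makes most of them, and C/EBP, STAT3 and NF-kB are the classical transcription factors of their promoters. Airway and alveolar epithelium, macrophages and neutrophils also make several of them, among which lipocalin 2, the product of Lcn2, is best known as a neutrophil granule and epithelial protein.

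The share of an array's spots that stood well above background in the lung channel ran from 49.1% to 72.8% (median 62.1%), with 0 spots saturated. The median correlation of an array with the others of its group was at least 0.885, and no 2 arrays correlated above 0.992. The 6 alveolar type 2 markers, Sftpc, Sftpb, Sftpa1, Lamp3, Abca3 and Slc34a2, were well above background on all 69 arrays, as were 7 of the 10 genes. Ptx3 was so on 62 arrays, Orm2 on 43 and Orm1 on 35. In pieces of whole lung, a larger number of cells of a type and more RNA per cell cannot be told apart.

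Several of the genes moved together, so the sequences upstream of their start sites are shown for 4 of those that were highest after NRCWE-030 at 162 µg on day 1. RefSeq windows of 300 bases, 250 before to 50 after the start on assembly GRCm38.p6, matched 7 of the 10 genes with 8 windows, as Cp had 2. Orm1, Hp and Lbp had no entry. Windows were searched on both strands for a C/EBP motif (TTGCNNAA), a STAT motif (TTCNNNGAA), the NF-kB consensus and the HNF1 motif, and matches are in capitals below. Each sequence is printed 5′ to 3′ in the direction of the gene. The windows lay at chr4:63362199-63362498 on the plus strand for Orm2, chr2:32387690-32387989 on the minus strand for Lcn2, chr7:105600067-105600366 on the minus strand for Hpx, and chr12:104406458-104406757 on the plus strand for Serpina3n.
Orm2: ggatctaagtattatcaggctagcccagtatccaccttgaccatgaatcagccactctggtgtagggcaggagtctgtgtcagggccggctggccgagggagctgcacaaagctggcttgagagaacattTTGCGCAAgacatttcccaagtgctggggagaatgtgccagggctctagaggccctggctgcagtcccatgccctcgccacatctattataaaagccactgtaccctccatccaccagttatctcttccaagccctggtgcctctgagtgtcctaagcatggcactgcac
Lcn2: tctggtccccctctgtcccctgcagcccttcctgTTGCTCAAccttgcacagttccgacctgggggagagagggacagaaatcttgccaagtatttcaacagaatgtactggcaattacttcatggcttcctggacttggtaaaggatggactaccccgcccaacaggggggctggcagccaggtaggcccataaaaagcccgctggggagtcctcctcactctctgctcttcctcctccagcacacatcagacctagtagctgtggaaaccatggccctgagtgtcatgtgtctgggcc
Hpx: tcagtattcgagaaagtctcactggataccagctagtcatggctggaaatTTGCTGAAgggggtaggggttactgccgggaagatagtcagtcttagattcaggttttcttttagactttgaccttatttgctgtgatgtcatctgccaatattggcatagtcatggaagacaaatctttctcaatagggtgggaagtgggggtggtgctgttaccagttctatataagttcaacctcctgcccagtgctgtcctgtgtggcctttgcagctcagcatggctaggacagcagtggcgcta
Serpina3n: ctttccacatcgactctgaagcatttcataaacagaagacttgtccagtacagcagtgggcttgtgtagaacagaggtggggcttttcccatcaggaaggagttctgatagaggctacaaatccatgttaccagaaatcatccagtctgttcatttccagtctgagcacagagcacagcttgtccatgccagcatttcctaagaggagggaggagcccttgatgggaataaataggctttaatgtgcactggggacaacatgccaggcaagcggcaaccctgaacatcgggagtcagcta

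The capitals mark a C/EBP match that began 120 bases before the start in Orm2, 216 bases before it in Lcn2 and 200 bases before it in Hpx. No capitals stand in the Serpina3n window, since these letters were not found there. Of the other windows, that of Ptx3 and 1 of the 2 of Cp held a C/EBP match, so 5 of the 7 genes had one. Of all 32851 promoter windows 10.8% held one, which is a share of windows and not of genes. Itih4 had a STAT match (8.3% of all windows), and Ptx3 had 2 overlapping matches to the NF-kB consensus (4.51%). The HNF1 motif was found in 0 of the 8 windows and in 0.00913% of all windows. These matches are a description of the letters and are not evidence of binding. As the genes were selected, the shares are no test of the list.

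After 162 µg of NRCWE-030, on day 1, 9 of the 10 genes had a higher mean than vehicle, with a median log2 difference of 1.29 against 0 over all genes, and 5 had an adjusted p under 0.05 (limma, Benjamini-Hochberg), which is what called means here: Orm2, Lcn2, Orm1, Hpx and Serpina3n. The background was 1.69% of the 18656 genes, but this is the comparison that chose the list, so nothing is read from the count. At 54 µg, Lcn2 was called among the 10 genes (background 0.0804%), and at 18 µg none of them was (0.00536%), also at an unadjusted p under 0.05. NRCWE-025 gave 0 called members at 162 µg (background 0.209%), with 5 at an unadjusted p under 0.05, 0 at 54 µg (0%, 2 unadjusted) and 0 at 18 µg (0%, 0 unadjusted). All 10 genes nevertheless had a higher mean than vehicle at 162 µg of NRCWE-025, with a median difference of 0.79.

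**Figure D1:**
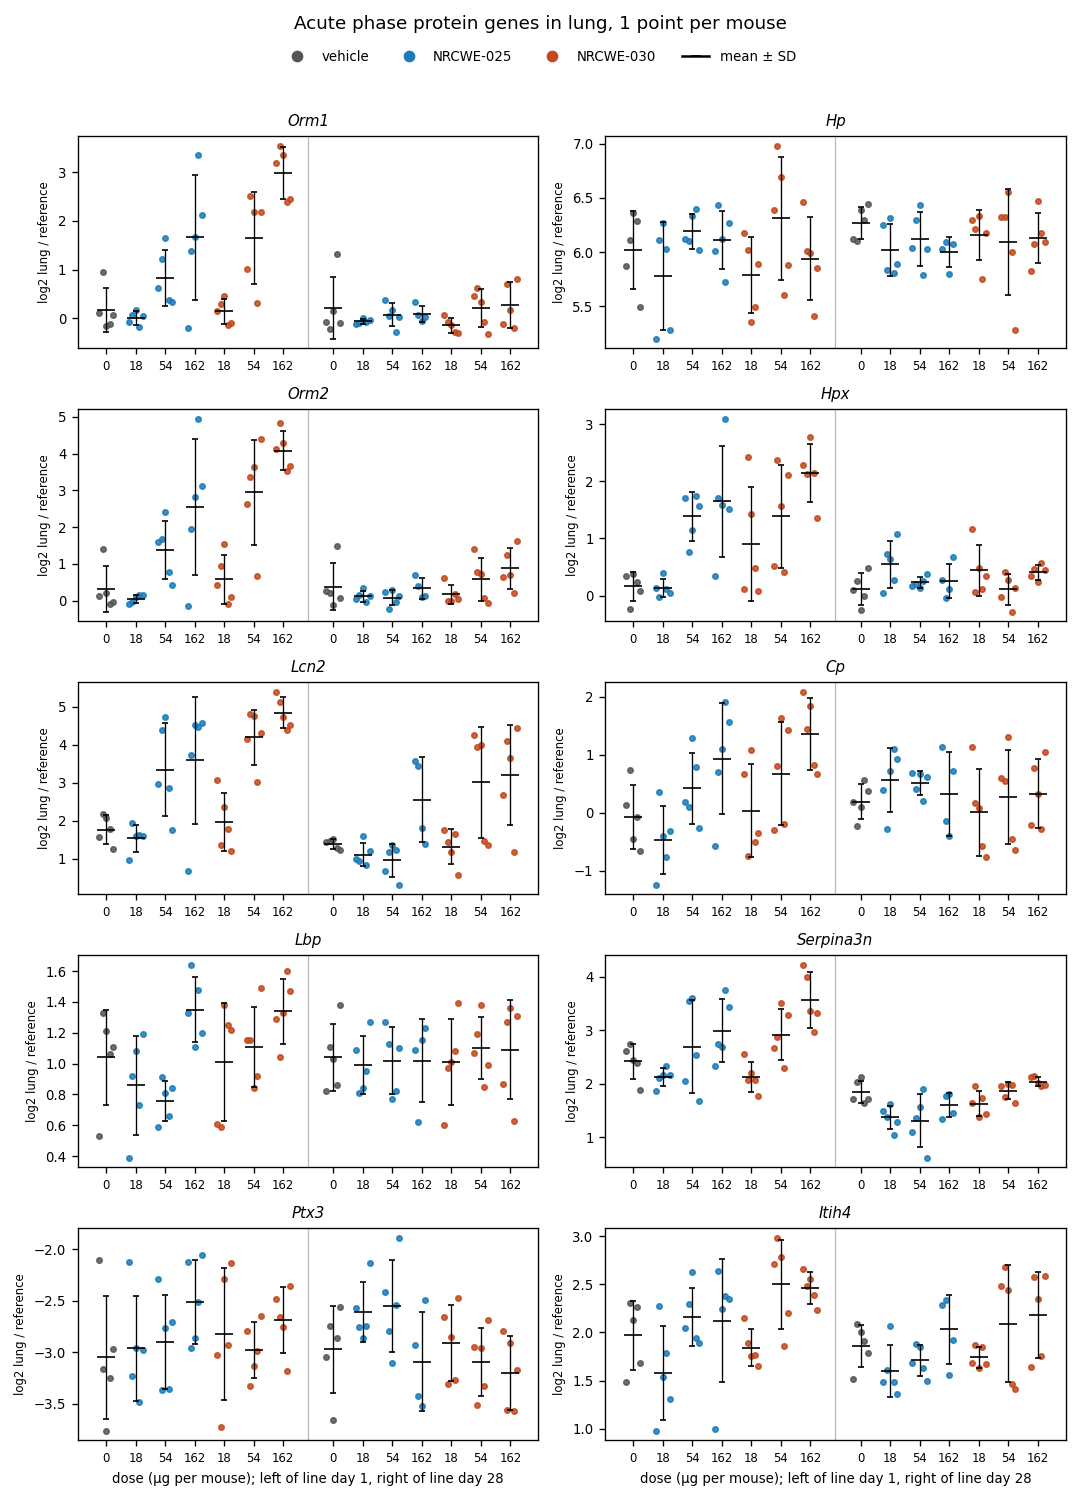
Values of the 10 genes on all 69 arrays, as log2 lung over reference (y axis), by dose in µg (x axis), with day 1 left and day 28 right of the grey line. Points are mice (grey vehicle, blue NRCWE-025, orange NRCWE-030) and bars show the mean ± SD. Orm1, Orm2, Lcn2, Hpx, Cp and Serpina3n have their highest group mean at 162 µg of NRCWE-030 on day 1, whereas the group means of Hp span 0.53 in all.

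Orm1 and Orm2 code for alpha-1-acid glycoproteins, plasma lipocalins that bind lipids and drugs and dampen leukocyte activity. Orm2 had the widest range of group means of the 10 genes, 4.03 on the log2 scale, and Orm1 spanned 3.13. In the vehicle lungs of day 1, Orm2 read 0.12, 1.41, 0.20, -0.10 and -0.03, and it was well above background on 1 of those 5 arrays. At 162 µg of NRCWE-030 it read 4.11, 4.83, 4.28, 3.52 and 3.65 and was above background on all 5. These groups did not overlap, and the difference was 3.76 ± 0.51 (SE, n = 5), measured against a group in which 4 of the arrays were not well above background.

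At 54 µg of NRCWE-030, Orm2 read 2.62, 3.36, 3.64, 0.67 and 4.40 on day 1. Replicate 4 lay inside the range of the vehicle lungs and the other 4 lay above it. Orm1 followed the same arrays: it read 1.02, 2.52, 2.19, 0.32 and 2.19 at 54 µg, and 3.19, 3.54, 3.35, 2.39 and 2.44 at 162 µg, where it was 2.82 ± 0.35 above vehicle, a group with Orm1 above background on 1 of 5 arrays. Over the 69 arrays Orm1 and Orm2 had a Pearson correlation of 0.972, and of 0.926 once group means were taken off. The 2 genes are close copies and each was read by 1 probe, so their separate values are uncertain.

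At 18 µg of NRCWE-025 on day 1, Orm1 was not well above background on any of the 5 arrays, so the other groups have only a bound against it. The Cy5 signal of the 162 µg group was at least 3.05-fold higher, with Orm1 above background on 4 of its 5 arrays, and that of the 54 µg group at least 1.79-fold higher, with 4 of 5. The adjusted p of the fit was 0.0985 for 162 µg against 18 µg and 0.999 for 54 µg against 18 µg (limma), so neither passed. On day 28 most lungs lay within the vehicle range for both genes, but replicate 4 of vehicle alone set its top. It read 1.31 for Orm1 and 1.49 for Orm2, and the next vehicle lungs read 0.14 and 0.25. At 162 µg of NRCWE-030 Orm2 read 0.64, 1.25, 0.69, 0.21 and 1.63, or 0.51 ± 0.30 above vehicle (limma, adjusted p = 0.742). On the 3 slides that held both groups, that difference ran from 0.39 to 1.38. Group means of Orm1 then ran from -0.15 to 0.27 and those of Orm2 from 0.08 to 0.88, with the highest for both at 162 µg of NRCWE-030.

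Lcn2 codes for lipocalin 2, which binds the siderophores with which bacteria capture iron. It read 1.57, 2.17, 2.07, 1.79 and 1.25 in the vehicle lungs of day 1, and 5.39, 5.12, 4.74, 4.40 and 4.52 after 162 µg of NRCWE-030. That is a difference of 3.07 ± 0.34 (SE, n = 5), or 8.37-fold, with no overlap. At 54 µg it read 4.14, 4.80, 4.75, 3.02 and 4.31, which again lay wholly above vehicle, by 2.43 ± 0.34.

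The step from 18 to 54 µg of NRCWE-030 on day 1 could be tested, as its means use neither the vehicle nor the 162 µg arrays. Its error was pooled over all groups of the fit, which include them. At 18 µg Lcn2 read 3.06, 1.37, 2.36, 1.79 and 1.20, so that 4 of the 5 lungs at 54 µg lay above all of the lungs at 18 µg and 1 lay just under the highest of them. The difference was 2.25 ± 0.34, or 4.75-fold (95% interval 1.53 to 2.97 on the log2 scale), and Lcn2 was called (limma, adjusted p = 0.0254). It was 1 of 2 genes called in all, a background of 0.0107%, and 9 of the 10 genes were higher at 54 µg with a median of 0.65 against -0.01 over all genes. Orm2 was 2.35 ± 0.51 higher and Orm1 1.51 ± 0.35 higher, with adjusted p of 0.179 and 0.255, and neither passed.

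Of the 10 fits without 1 of the arrays, 3 kept the Lcn2 call, and without replicate 4 of the 54 µg group, the lowest of the group, 3 members were called. With slide as a fixed block the difference was 2.04 (adjusted p = 0.567), with scan day 2.12 (0.289), and with slide as a random block 2.19 (0.00889). When all 14 groups were fitted together, Orm2 was called here in place of Lcn2. On the 3 slides that held both doses, the difference between the arrays ran from 1.75 to 3.38.

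After NRCWE-025 the mice of a group were more scattered. On day 1 Lcn2 read 0.97, 1.94, 1.59, 1.62 and 1.60 at 18 µg, 2.98, 4.40, 4.73, 2.87 and 1.75 at 54 µg, and 0.67, 3.72, 4.53, 4.47 and 4.58 at 162 µg. At 162 µg 4 lungs stood far above the 18 µg group and replicate 1 stood below all of it. The difference of 162 µg from 18 µg was 2.05 ± 0.61 and did not pass (limma, adjusted p = 0.141).

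That lung was low for most of the genes. Replicate 1 of NRCWE-025 at 162 µg read -0.20 for Orm1, -0.14 for Orm2, -0.57 for Cp, 0.35 for Hpx and 1.00 for Itih4 on day 1, each the lowest of its group and within or below the vehicle range. The other 4 lungs of the group read 1.38 to 3.35 for Orm1 and 1.95 to 4.94 for Orm2. The array itself had 54.56% of spots above background, near the 54.39% of the vehicle array on its slide.

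**Figure D2:**
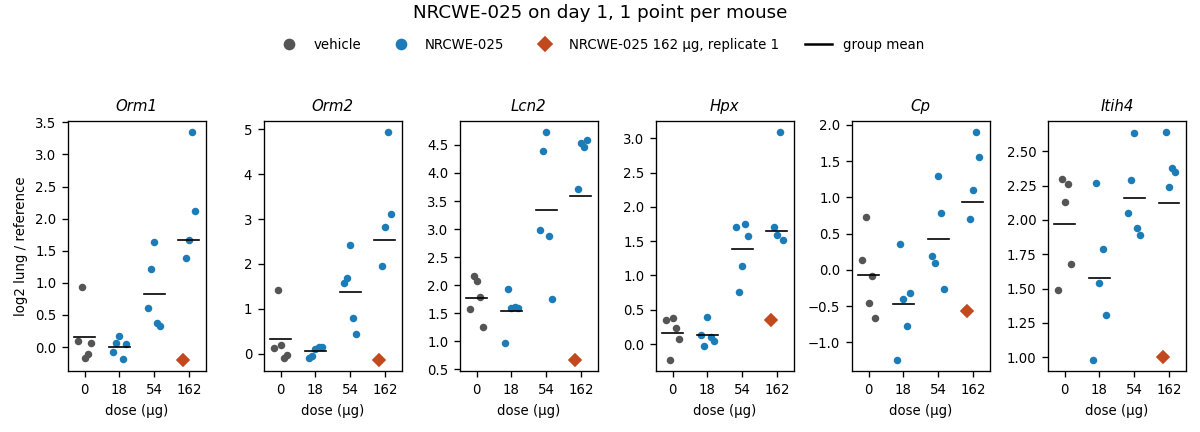
Values on day 1 of 6 of the genes in vehicle lungs (dose 0, grey) and after NRCWE-025 (blue), as log2 lung over reference against dose in µg. Each point is a mouse, lines are group means, and the orange diamond is replicate 1 of the 162 µg group, which lies at 0.67 for Lcn2 while the other 4 lie between 3.72 and 4.58.

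In the comparison of 162 µg with 18 µg of NRCWE-025 on day 1, all 10 genes were higher, with a median of 1.13 against 0.01 over all genes. Hpx was the only member called (background 0.311%), and 7 members were under 0.05 unadjusted. Hpx codes for hemopexin, the plasma protein that carries free heme. It read 0.13, -0.03, 0.39, 0.11 and 0.05 at 18 µg and 0.35, 1.70, 1.59, 3.09 and 1.52 at 162 µg, so that replicate 1 alone lay within the 18 µg group. The difference was 1.52 ± 0.32, or 2.87-fold (limma, adjusted p = 0.0419, with 95% limits of 0.86 and 2.18 on the log2 scale).

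This call lay close to the threshold. Over the processing alternatives the difference ran from 1.1 to 2.21 and the adjusted p from 0.0144 to 0.137, with 6 of 13 alternatives below 0.05, and 2 of the 10 fits without 1 of the arrays kept the call. Without replicate 1 of the 162 µg group, Cp, Hpx, Lcn2, Orm1 and Orm2 were called, and Hpx was 1.85 higher. With slide as a random block 5 members were called, Cp, Hpx, Lbp, Orm1 and Orm2. That setting called 409 of all genes, against 58 as reported. A fixed block for slide, or one for scan day, left no member called. On the 3 slides that held both doses the Hpx difference ran from 0.23 to 3.05.

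At 54 µg of NRCWE-025 Hpx read 1.71, 0.76, 1.14, 1.75 and 1.57, wholly above the 18 µg and the vehicle lungs, but 0 members were called for 54 µg against 18 µg (background 0%), with 5 under 0.05 unadjusted. Hpx differed by 1.26 ± 0.32 (limma, adjusted p = 0.999). After NRCWE-030 Hpx read 0.12, 2.42, 1.42, 0.49 and 0.08 at 18 µg, 0.51, 2.37, 1.57, 0.41 and 2.11 at 54 µg, and 2.28, 2.12, 2.78, 2.14 and 1.35 at 162 µg on day 1. At 18 µg 3 of the 5 lungs lay above the highest vehicle value of 0.38, and at 54 and at 162 µg all 5 did. The mean difference from vehicle was 1.97 ± 0.42 at 162 µg.

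Markers of liver cells moved with Hpx on some of these arrays. The mean of 8 hepatocyte markers had a correlation of 0.548 with Hpx over the 69 arrays after group means were taken off, the highest of the 10 genes. It stood at 3.16 on replicate 2 of NRCWE-030 at 18 µg, where Hpx was 2.42, and at 2.27 on replicate 2 at 54 µg, where Hpx was 2.37, against 0.53 to 0.89 in the vehicle lungs of that day. At 162 µg of NRCWE-030 it was 0.37 to 0.99, beside Hpx of 1.35 to 2.78. Of the 8 markers, Ttr was well above background on 3 arrays, Serpina1c on 9, Apoa2 on 21 and Apob on 29. After 54 µg of NRCWE-025, where Hpx lay wholly above vehicle, the hepatocyte mean was 0.52 to 2.82, with a mean of 1.74, the highest of the 14 groups. At 162 µg of NRCWE-025 it was 0.44 to 1.31, against 0.78 to 1.48 at 18 µg. Within the 162 µg group it was 0.63, 0.57, 1.31, 1.30 and 0.44 in replicate order, beside Hpx of 0.35, 1.70, 1.59, 3.09 and 1.52. Replicate 1, with the lowest Hpx, thus did not have the lowest hepatocyte mean. The part of liver cells in the Hpx values was not tested.

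Hp, for haptoglobin, the carrier of free haemoglobin, had the narrowest range of group means of the 10 genes, from 5.78 to 6.31. Arrays within a group varied by an SD of 0.26 (median). It read 5.87, 6.11, 6.36, 6.29 and 5.49 in the vehicle lungs of day 1 and 6.46, 6.01, 5.99, 5.41 and 5.85 after 162 µg of NRCWE-030. These groups overlapped almost fully, with a difference of -0.08 ± 0.25. Of the 3 genes whose pattern over the 69 arrays was most like that of Hp, Cyp2f2, a club cell enzyme, led with a correlation of 0.690.

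Cp, for ceruloplasmin, the copper carrier that oxidises iron, varied widely among mice of a group. It read 0.13, 0.73, -0.46, -0.08 and -0.66 in the vehicle lungs of day 1 and 2.08, 1.44, 1.83, 0.82 and 0.66 at 162 µg of NRCWE-030. Only the lowest treated lung lay within the vehicle range, and the difference was 1.43 ± 0.42. For NRCWE-025 at 162 µg against 18 µg it was 1.41 ± 0.40 (limma, adjusted p = 0.125). Airway epithelium markers varied with Cp: their mean over 5 genes had a correlation of 0.803 with Cp after group means were taken off, and it ranged from 3.06 to 5.83 among the vehicle lungs of day 1. The group mean of these markers was 4.40 in vehicle and 4.39 after the top dose of NRCWE-030. It was 3.70 at 18 µg and 3.77 at 162 µg of NRCWE-025. Fat and heart muscle markers also varied with Cp within groups (0.73 and 0.7), and fat markers with Orm1 (0.568) and Orm2 (0.520). The mean of the 5 fat markers was 1.29 to 4.54 in vehicle and 0.51 to 2.96 at 162 µg of NRCWE-030 on day 1, and that of the 5 heart markers 1.23 to 5.23 and 0.55 to 3.94. The part of these tissues in the values was not tested.

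Serpina3n is a mouse counterpart of human antichymotrypsin and inhibits serine proteases. It read 2.62, 2.75, 2.44, 2.38 and 1.89 in the vehicle lungs of day 1 and 4.22, 3.99, 3.36, 2.96 and 3.33 at 162 µg of NRCWE-030, with no overlap and a difference of 1.16 ± 0.24. In the lungs given 162 µg of NRCWE-025 it read 2.33, 2.74, 2.68, 3.76 and 3.43, and only the last pair stood clear of vehicle. Over the processing alternatives the difference for NRCWE-030 at 162 µg ran from 0.36, with the scanner software's own log ratio, to 1.52, with slide as a fixed block. It was past the threshold in 10 of 13 of them, and was not with the scanner log ratio or with a fixed block for slide or for scan day. It was also lost without replicate 1 and without replicate 2 of the treated group. Serpina3n belongs to a cluster of similar genes and was read by 1 probe, so its value is uncertain in the same way.

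Itih4, a heavy chain of the inter-alpha-trypsin inhibitor family that is cut by plasma kallikrein, moved less. At 54 and 162 µg of NRCWE-030 its group means on day 1 were 2.50 and 2.46, against 1.97 in vehicle, and the differences were 0.53 ± 0.19 and 0.49 ± 0.19. Against 18 µg the 54 µg group was 0.66 ± 0.19 higher and did not pass (limma, adjusted p = 0.423). Itih4 was like Lcn2 in its pattern over the 69 arrays, with a correlation of 0.847, and of 0.811 after group means were taken off.

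The remaining pair, Lbp and Ptx3, take part in the recognition of microbes. Lbp codes for the protein that hands lipopolysaccharide to CD14. Its group means ran from 0.76 to 1.35, and at 162 µg on day 1 it was 0.30 ± 0.17 above vehicle for NRCWE-030 and 0.31 ± 0.15 for NRCWE-025. Against 18 µg of NRCWE-025 the 162 µg group was 0.49 ± 0.15 higher (limma, adjusted p = 0.155).

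Ptx3 codes for the long pentraxin that opsonises fungi and bacteria. Its lung signal lay below the reference on every array, from -3.76 to -1.89, and its 14 group means ran from -3.20 to -2.51. Its 2 probes gave group means that lay 0.04 to 0.20 apart within a group. At 162 µg of NRCWE-030 on day 1 the difference from vehicle was 0.36 ± 0.28, and the groups overlapped. In the fits as reported, Lbp and Ptx3 had no call in any comparison, while Lbp was called for NRCWE-025 at 162 against 18 µg with slide as a random block.

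**Figure D3:**
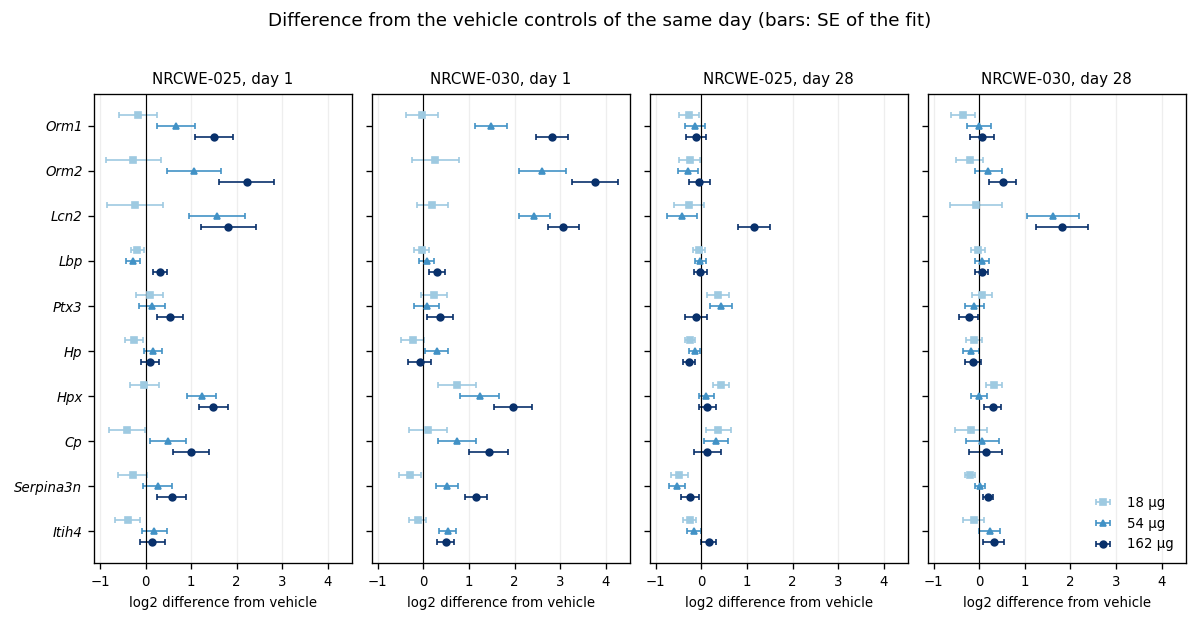
Log2 difference of each dose from the vehicle lungs of the same day (x axis) for the 10 genes (y axis), by material and day, with bars for the SE of the fit and symbols for 18 µg (square), 54 µg (triangle) and 162 µg (circle). On day 1 all 10 genes lie farther to the right at 162 µg than at 18 µg for both materials. Hp, Lbp, Itih4 and Ptx3 lie no more than 0.54 from vehicle at 162 µg on that day. On day 28 Lcn2 alone keeps a difference above 1.

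The arrays of day 28 were not those whose response chose the genes, so each dose was tested against the vehicle lungs of that day. The genes and the tests were, however, chosen with earlier results of these data known. None of the 10 genes was called at any dose of either material (limma). For NRCWE-030 the background was 0.118% at 18 µg, 0.0536% at 54 µg and 0.0965% at 162 µg, and 0, 1 and 1 members were under 0.05 unadjusted. For NRCWE-025 it was 0.059% at 18 µg, 0.0268% at 54 µg and 0.0161% at 162 µg, with 2, 1 and 1 members unadjusted. The F-test over vehicle and the doses called 0 members for NRCWE-030 (background 0.102%) and 0 for NRCWE-025 (0.0268%), each with 2 unadjusted.

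Lcn2 stood out among the day 28 values by its split within groups. It read 1.45, 1.46, 1.52, 1.28 and 1.23 in the vehicle lungs, with a mean of 1.39. At 54 µg of NRCWE-030 it read 4.27, 3.94, 4.00, 1.48 and 1.36, and at 162 µg 2.68, 4.11, 3.65, 1.18 and 4.43. In each of these groups most lungs lay far above vehicle and the others lay at its level, with none between 1.48 and 2.68.

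The mean differences were 1.62 ± 0.57 at 54 µg (limma, adjusted p = 0.587) and 1.82 ± 0.57 at 162 µg (adjusted p = 0.376), with 95% intervals of 0.43 to 2.82 and 0.63 to 3.02. NRCWE-025 at 162 µg read 3.58, 3.43, 1.80 and 1.38, with a difference of 1.16 ± 0.35 (adjusted p = 0.431). At 18 µg of either material and at 54 µg of NRCWE-025, no lung exceeded 1.76.

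This split went along the slides only in part, and slide and mouse cannot be told apart in it. The 3 slides that held NRCWE-030 arrays together with a vehicle array gave differences of 2.82, 2.42 and 2.77 at 54 µg and of 1.23, 2.59 and 2.42 at 162 µg. With slide as a fixed block Lcn2 was called at both doses, with 2.65 (adjusted p = 0.00508) and 2.20 (adjusted p = 0.00902). With scan day as a block it was 2.64 (0.00538) and 2.18 (0.0169), and with slide as a random block it was 1.96 (0.0908) and 1.94 (0.0806). The low arrays were on slides without a vehicle array: replicates 4 and 5 at 54 µg on slides 17 and 15, and replicate 4 at 162 µg on slide 17. Their scan days held no vehicle array of day 28 either. A fixed block therefore takes up the low level of these arrays. The calls with a fixed block rest mainly on the slides or scan days shared with vehicle, where Lcn2 was high. Slide 17 also held replicate 2 of NRCWE-025 at 162 µg, which read 3.43, and slide 18, again without vehicle, held replicate 5 of NRCWE-030 at 162 µg, which read 4.43. The part of the slide in the split was not tested.

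The neutrophil markers had a lower mean than vehicle in all 6 treated groups of day 28, those with and those without high Lcn2, and 0 of them passed. At 54 µg of NRCWE-030 all 10 measured markers, S100a8 and S100a9 among them, had a lower mean than vehicle, with a median difference of -0.46, and at 162 µg the median was -0.38, again with all 10 lower. Their mean over the 10 genes was 1.45 to 1.56 on the arrays at 54 µg and 1.36 to 2.32 in vehicle. Elane was well above background on 1 array of 69, Ngp on 20 and Camp on 33. The 7 macrophage markers had a mean of 1.76 to 2.26 at 54 µg and 1.93 to 2.21 at 162 µg against 1.51 to 1.87 in vehicle, and 0 of the 7 passed at either dose. At 18 µg of NRCWE-030 the macrophage mean was 1.89 to 2.16, as high as at 54 µg. Lcn2 there had a mean of 1.32, against 1.39 in vehicle. Over all 69 arrays the correlation of the macrophage mean with Lcn2, after group means were taken off, was 0.509. That of the airway epithelium mean was 0.465, and that of the neutrophil mean 0.295. At 54 µg of NRCWE-030 the airway mean was 4.62, 5.23 and 5.75 on the lungs with high Lcn2 and 3.63 and 3.01 on the others. At 162 µg it was 3.3, 5.58, 3.97, 4.14 and 4.89 in replicate order, and in vehicle 3 to 5.47. The part of these cell types in the Lcn2 values was not tested.

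**Figure D4:**
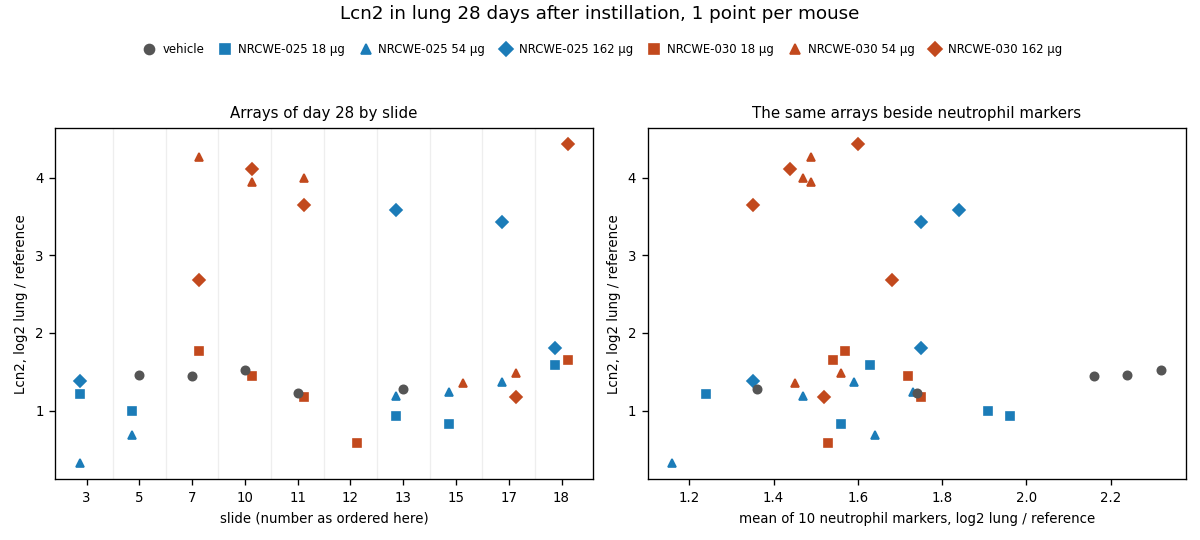
Lcn2 on the 34 arrays of day 28 as log2 lung over reference, on the left by slide and on the right against the mean of 10 neutrophil markers. Each point is a mouse, with colour for material (grey vehicle) and shape for dose. The vehicle lungs lie between 1.23 and 1.52, and the lungs above 3 lie at neutrophil means of 1.35 to 1.84.

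At 54 µg of NRCWE-030 on day 28, the 3 lungs high for Lcn2 also read above the other 2 for Orm1, Orm2, Hp, Lbp, Cp and Itih4. Orm2 read 1.40, 0.77, 0.72, 0.07 and -0.06 there, and Cp 0.60, 0.55, 1.30, -0.46 and -0.65. Itih4 read 2.48, 2.68, 2.44, 1.46 and 1.41, with those 3 lungs above all vehicle lungs and the other 2 below them. Its difference of the means at 54 µg was 0.23 ± 0.23 (limma, adjusted p = 0.926). At 162 µg Itih4 read 1.64, 2.57, 2.35, 1.75 and 2.58. Its lowest lung there was replicate 1, where Lcn2 was 2.68, so Itih4 did not follow Lcn2 on every array. At 18 µg of both materials and at 54 µg of NRCWE-025, Serpina3n had the smallest p of the 10 genes. It was -0.21 ± 0.11 from vehicle at 18 µg of NRCWE-030 (adjusted p = 0.6), -0.48 ± 0.18 for the 18 µg group of NRCWE-025 (0.436) and -0.53 ± 0.18 for its 54 µg group (0.533), and 0 of these passed. With the scanner log ratio the first of these was 0.02.

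The materials were set against each other at equal dose and day, in 1 fit of all 14 groups, over 6 comparisons. On day 1 0 members were called at 18 µg (background 0.0482%, 1 unadjusted), and the smallest p belonged to Hpx, 0.77 ± 0.33 higher after NRCWE-030 (limma, adjusted p = 0.527, 95% interval 0.12 to 1.43). At 54 µg 0 were called (0.059%, 3 unadjusted), and Orm2 was 1.56 ± 0.48 higher after NRCWE-030 (adjusted p = 0.398, 95% interval 0.60 to 2.52). Without replicate 4 of NRCWE-030 at 54 µg, that Orm2 difference was 2.12 and was called (adjusted p = 0.0337). That lung was the lowest of its group for Orm2, and no other fit without 1 array called a member there. At 162 µg, a comparison that is described only, 0 were called (0%) and 7 of the 10 genes were higher after NRCWE-030, by 1.32 ± 0.34 for Orm1 and 1.54 ± 0.48 for Orm2. Without replicate 1 of NRCWE-025 these were 0.86 for Orm1 and 0.87 for Orm2. On the 3 slides that held both materials they ran from -0.96 to 1.88 for Orm1 and from -1.42 to 2.01 for Orm2, and were above 0 on 2 of the 3.

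On day 28 0 members were called between the materials at 18 µg (0%, 0 unadjusted), 54 µg (0.0804%, 3 unadjusted) or 162 µg (0.0161%, 0 unadjusted). At 54 µg Lcn2 was 2.05 ± 0.55 higher after NRCWE-030 (limma, adjusted p = 0.149, 95% interval 0.94 to 3.15), with 4 of 5 lungs above all of those given NRCWE-025. Leaving out replicate 5 of NRCWE-030 at 54 µg, its lowest lung for Lcn2, gave 2.46 and a call (adjusted p = 0.0321). That fit called 46 genes in all, against 15 as reported, and no other fit without 1 array called a member. On the 2 slides that held both materials at 54 µg the difference was 0.12 and 0.10. The smallest p belonged to Cp at 18 µg, with -0.55 ± 0.41 (adjusted p = 0.877), and to Serpina3n at 162 µg, where the 5 lungs of NRCWE-030 lay above the 4 of NRCWE-025 by 0.45 ± 0.27 (adjusted p = 1). A p that misses the threshold does not show that the materials act alike, and the number of arrays limits what these intervals can show.

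The change between days could be tested for NRCWE-025 as the step from 18 to 162 µg on day 1 less the same step on day 28. A larger step on day 1 was found for all 10 genes, with a median of 0.78 against 0.01 over all genes. None was called (background 0.00536%, 5 unadjusted), and Hpx had the smallest p, with 1.82 ± 0.48 (limma, adjusted p = 0.272). Without replicate 1 of NRCWE-025 at 162 µg on day 1, Hpx and Orm2 were called. For NRCWE-030, whose day 1 arrays chose the genes, the difference from vehicle at 162 µg went from 3.76 on day 1 to 0.51 on day 28 for Orm2, from 2.82 to 0.06 for Orm1, from 1.97 to 0.29 for Hpx and from 3.07 to 1.82 for Lcn2.

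Other genes of the response were followed as lists. The background was 1.69% at the top dose of NRCWE-030 on day 1, and 3 of the 4 serum amyloid A genes were called there, with Saa3 at 7.31. Among the other positive acute phase proteins called higher were the complement factor Cfb (1.27) and the interleukin 1 antagonist Il1rn (0.92), and the median of that list was 0.04. Of 7 inducing cytokines, Il1b (1.27) and Il6 (1.21) were called. Of 8 transcription factors and feedback genes, Cebpb (0.55) and Nfkbiz (0.65) were. These counts describe the comparison that chose the genes.

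Of 13 measured relatives, Serpina3f was called higher (0.47) and Itih5 lower (-1.17) at 162 µg of NRCWE-030 on day 1, and the median was 0.06. Of 8 negative acute phase proteins, which the liver makes less of during the response, 0 were called, and of 7 cytokine receptors 0 were. Among 10 receptors and partners of the proteins, the heme oxygenase Hmox1 was called (0.94). Of 10 neutrophil markers, Csf3r was called (1.25) and the median was 0.06, and the neutrophil mean was 1.62 to 2.01 against 1.45 to 1.69 in vehicle.

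In the tested comparisons on day 1, NRCWE-025 at 162 µg against 18 µg called Saa3 (5.41), Saa1 (3.39), Saa2 (2.78) and Hmox1 (0.84) higher and the receptor Lifr (-0.29) lower. NRCWE-030 at 54 µg against 18 µg called Saa2 (2.61). The positive and negative acute phase lists, the relatives, the cytokines and the transcription factors had 0 calls in both, and so had the markers of neutrophils, macrophages, hepatocytes, airway and type 2 epithelium, endothelium and type 1 cells, heart muscle and fat. On day 28, 0 genes of any of these lists were called against vehicle.

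For each gene, the most similar patterns were taken as a description from the Pearson correlation of log2 ratios over the 69 arrays, which share the group differences and the reference. Orm1 and Orm2 were followed by Saa1, at 0.948 and 0.959. Lcn2 was most like Noxo1 (0.939), a subunit of an epithelial oxidase, and then Cstb (0.898) and Saa3 (0.898). Serpina3n was most like Timp1 (0.862), an inhibitor of metalloproteinases, and Hpx like Orm2 (0.798) and Saa2 (0.796). Cp was most like Cd14 (0.915) and Pigr (0.870), Lbp like Ifi30, Esd (0.787) and Tmem14c (0.785), and Itih4 like Lcn2. Ptx3 went with Ckap2 (0.908), a gene of the mitotic spindle, and had a correlation of -0.134 with Lcn2. Ckap2 was well above background on 48 of the 69 arrays and Ptx3 on 62, so dim signal may enter that correlation, which was not tested.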

How the data were processed

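The deposited scanner files were 2-colour Agilent arrays, read with Feature Extraction 11.0.1.1 per the file headers, with spot intensity in Cy5 (lung) and Cy3 (reference) and the software's own log10 ratio. The deposited series table held the authors' normalised values, read here as log2. Its scale was checked against the spots (median slope 0.993, median r 0.996, column medians -0.05 to 0), while its exact background treatment is not given in the sources used here.

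From the intensities, local backgrounds that the software marked as non-uniform or outlying were replaced by the array's median. The normexp background correction (offset 50) was followed by loess within each array (limma 3.58.1, R 4.3.3), with flagged spots left out. Of 45018 spots, 41174 probes remained, and 27479 had a RefSeq symbol through their accession. Genes were medians of probes, and 18656 of 18749 had a value on all 69 arrays and were tested. One linear model per material and day gave doses against vehicle and each other, and 1 model of all 14 groups gave materials and days. P-values were adjusted by Benjamini-Hochberg over all genes, with a threshold of 0.05, and the code was tested on simulated data.

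Samples were grouped by their labels, 1 mouse per array, and the number of arrays limits the precision. The members, the gene lists and the tests were chosen with earlier results of these data known. The genes named are the members and, from the lists, called genes, and the 3 genes of highest correlation. Alternatives covered background, normalisation, probe summary, dim genes, slide, scan day, a joint fit and each array left out. The lists' results leave out 1 called gene, which is not reported here.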

Additional observations from a re-analysis of the deposited data

Results flagged for a closer look

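In 7 of the 140 groups of 1 gene, a single array stood far from the rest of its group, and chance gives about 1 in 20. In vehicle, replicate 2 of day 1 read 0.94 for Orm1 and 1.41 for Orm2, and replicate 4 of day 28 read 1.31 for Orm1 and 1.49 for Orm2, each above the other 4 lungs. Replicate 1 of NRCWE-025 at 162 µg on day 1 read 0.67 for Lcn2 and 1.00 for Itih4, below the other 4. Replicate 4 of NRCWE-030 at 18 µg on day 28 read 5.75 for Hp, below the other 4.

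For Orm2 after 54 µg of NRCWE-025, the mean difference from vehicle was 1.06 on day 1 and -0.30 on day 28, so that the days were 1.36 apart. Each lung of day 1 lay above the vehicle mean and each of day 28 below it, and the difference between days was not tested. The vehicle mean of day 28, 0.38, was raised by replicate 4 at 1.49. The other vehicle lungs read 0.25, 0.21, -0.12 and 0.06, and the treated lungs of that day 0.24, -0.23, 0.28, -0.05 and 0.13. The value of -0.30 thus rests on that vehicle array.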

How the results depend on the processing

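Of the comparisons of the 10 genes, the numbers called moved as follows. For NRCWE-030 at 54 µg against vehicle on day 1 (1 called), 2 were called with marked backgrounds kept, with the scanner log ratio or with dim genes left out, and 3 with slide as a random block or in the joint fit of 14 groups. At 162 µg (5 called), a fixed block for slide or scan day left 3. For NRCWE-030 at 54 against 18 µg (1 called), the scanner log ratio and a fixed block for slide or scan day left 0. On day 28 (0 called), a fixed block for slide or scan day called 1 at 54 µg, 1 at 162 µg and 1 in the dose effect of NRCWE-030, where slide as a random block also called 1. For NRCWE-025 at 162 µg against vehicle on day 1 (0 called), dim genes left out and slide as a random block called 1, and the joint fit 3. Against 18 µg (1 called), marked backgrounds kept, no background correction, the scanner log ratio, the series table, scaling between arrays (chosen after seeing the data) and a fixed block for slide or scan day left 0, slide as a random block called 5 and the joint fit 3. Between materials at 162 µg on day 1 (0 called), marked backgrounds kept called 1. Serpina3n at 18 µg of NRCWE-030 on day 28 turned from -0.21 to 0.02 with the scanner log ratio. The cause was not tested. The numbers called over all 18656 genes moved as well between the alternatives. For NRCWE-030 against vehicle on day 1 they ran from 9 to 118 at 54 µg and from 50 to 585 at 162 µg. On day 28 they ran from 1 to 92 at 54 µg and from 5 to 72 at 162 µg. For NRCWE-025 at 162 µg on day 1 they ran from 0 to 171 against vehicle and from 0 to 409 against 18 µg. With 1 array left out, the calls ran from 1 to 3 for NRCWE-030 at 54 µg and 3 to 5 at 162 µg against vehicle on day 1, 0 to 3 for 54 against 18 µg, 0 to 4 for NRCWE-025 at 162 µg against vehicle, 0 to 5 against 18 µg, 0 to 1 between materials at 54 µg on day 1 and on day 28, 0 to 2 at 162 µg on day 1, 0 to 2 for the difference between days, and 0 to 0 elsewhere. No paired analysis was possible because the replicate numbers were given in accession order. Signal over background limits Orm1, Orm2 and Ptx3.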
